A study of Rattus norvegicus with 88 samples.

Results

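miR-101a, miR-101b and miR-22 (rno-miR-101a, rno-miR-101b and rno-miR-22 in the files) are 3 of the 677 miRNAs on the rat array used, and they were taken by name from a list of miRNAs known to restrain hepatocyte growth. All 3 were among the 314 miRNAs detected on at least 1 array, and each was detected on 88 of 88 arrays, so no filter on low values removed any of them. The arrays held liver RNA of untreated Fischer 344 (F344) rats, 45 females and 43 males, from a single breeding colony and with 1 animal on each array. The rats were 2 weeks old, then 5, 6 or 8 weeks, 15 or 21 weeks, and at the end 52, 78 or 104 weeks. Each group of an age and a sex had 5 animals, apart from the males of 5 and of 104 weeks with 4. The RNA came from ground whole liver, so the values mix all liver cell types. The estrous cycle of the females was not followed, and liver histology was done only at 52, 78 and 104 weeks.

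A mature miRNA guides a silencing complex to mRNAs, mainly by pairing through its seed, bases 2 to 8 from the 5′ end, and lowers their translation and stability. The miR-101 family is known for repressing the mRNA of Ezh2, the histone methyltransferase of the Polycomb complex, and it is commonly low in liver tumours. miR-22 is an abundant miRNA of metabolic tissues, and its known targets include the mRNA of the estrogen receptor. Hepatocytes of a suckling rat still divide and acquire adult metabolism during and after weaning, which is the interval between the first and the second age sampled here. The comparisons asked whether the levels of these miRNAs differed between young, adult and old liver and between the sexes.

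The mature sequences are shown because the 2 miR-101 members share a seed while miR-22 has its own, and because the 2 miR-101 members are nearly the same molecule. The seed is in capitals, and the sequences and positions are those of RefSeq on build GRCr8.
miR-101a-3p: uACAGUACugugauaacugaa
miR-101b-3p: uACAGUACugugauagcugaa
miR-22-3p: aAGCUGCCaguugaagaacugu
miR-101a and miR-101b were both 21 bases long and differed by 1 substitution, A16G, counted from 1 at the 5′ end with the base of miR-101a first. They come from separate genes, Mir101a on the minus strand of chr5:121081691-121081711 and Mir101-2 on the plus strand of chr1:236273982-236274002. miR-22 comes from Mir22 on the plus strand of chr10:60805387-60805408. Of 692 different mature rat sequences in the RefSeq table, 2 carried the seed ACAGUAC, namely these miR-101 members, and 1 carried AGCUGCC, namely miR-22. Each member was read by 2 probes of 10 spots, and no spot was saturated. The median spread between the spots of a probe was between 2.47% and 5.05%, and the software's own error of the summed signal had a median of 7.13% for miR-101a, 7.46% for miR-101b and 7.77% for miR-22. Whether a probe of one miR-101 member also bound the other was not tested.

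Values are given as normalized intensity, the signal of a miRNA divided by the 75th percentile of the expressed miRNAs on its array, and the levels of different miRNAs are not compared because each has its own probes. A miRNA was called different where limma's moderated test, adjusted over the 314 expressed miRNAs by the Benjamini-Hochberg method, gave an adjusted p under 0.05 with at least 1.5-fold. The scale of the arrays ranged from 28.1 to 289 with a median of 62.1, and its median was 101 on the 2-week female arrays and 133 on the 2-week male arrays. The number of animals limits the precision of each group. The liver label was checked against 3 hepatocyte miRNAs, among them miR-122, which were detected on every array and whose summed normalized intensity was at least 399.

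miR-22 was lowest at 2 weeks of age in both sexes and was higher at each later age. In 2-week-old females its normalized intensity was 29.7, 32.0, 33.5, 35.9 and 41.2. In 2-week-old males it was 18, 19.5, 20.8, 24.0 and 31.1. In adults of 5 to 21 weeks the lowest, median and highest values were 62.4, 92.0 and 118 in 25 females and 59.0, 98.9 and 149 in 24 males. No 2-week array reached the lowest adult array of its sex. The 2-week animals also lay below every one of the older rats of 52 to 104 weeks, which ranged from 59.9 to 137 with a median of 93.9 in 15 females and from 69.6 to 108 with a median of 91.0 in 14 males. In females miR-22 rose from 2 weeks to adulthood by 1.38 on the log2 scale (SE 0.14, limma adjusted p = 4.38e-12), which is 2.61-fold. In males it rose by 2.15 (SE 0.14, limma adjusted p = 5.85e-18), or 4.45-fold. The older rats differed from the same 2-week arrays by 1.44 in females and 2.03 in males, and both differences were called. In this comparison of 2 weeks with adults, 39.8% of all expressed miRNAs were called in females and 49.7% in males, 22.9% and 29.9% of all being higher in adults and 16.9% and 19.7% lower. In whole liver, fewer cells of a type and less RNA per cell cannot be told apart.

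miR-101a was also lowest at 2 weeks. In 2-week-old females its normalized intensity was 1.83, 1.84, 2.11, 2.19 and 2.73. In 2-week-old males it was 1.59, 2.11, 2.37, 2.38 and 2.41. In adults the lowest, median and highest values were 2.61, 4.50 and 7.06 in females and 3.1, 4.41 and 6.44 in males. All adult males therefore lay above all 2-week males, whereas the highest 2-week female reached above the lowest adult female. The difference was 1.12 on the log2 scale in females (SE 0.20, limma adjusted p = 4.52e-06; 2.18-fold) and 1.03 in males (SE 0.12, limma adjusted p = 1.07e-09; 2.05-fold), and both were called. In the older rats the values ran from 2.51 to 6.99 in females and from 3.8 to 6.28 in males. Against the same 2-week arrays, the older rats were higher by 1.38 in females and 1.25 in males, also called.

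miR-101b moved less. In 2-week-old females its normalized intensity was 13.1, 13.8, 14.4, 15.4 and 18.7, and in 2-week-old males it was 11.9, 14.8, 15.7, 16.0 and 17.3. In adults the lowest, median and highest values were 13.9, 21.2 and 27.7 in females and 15.1, 20.4 and 28.1 in males. The groups overlapped in both sexes. The adult level was 1.43-fold the 2-week level in females (limma adjusted p = 0.00275) and 1.38-fold in males (limma adjusted p = 0.000128), under the 1.5-fold threshold, so miR-101b was not called. Without 2-week female animal 1 the female difference was 0.60 on the log2 scale and was called. Against 52 to 104 weeks it was called in females, at 1.59-fold (limma adjusted p = 0.000262, background 45.9%), and not in males, at 1.46-fold (limma adjusted p = 2.80e-05, background 48.7%). Without 2-week male animal 3, and also with the scan as a block, this male difference was 0.59 on the log2 scale and was called. The female call was lost when scaled to the miRNAs detected on all arrays, by their 75th percentile (-0.17) or their mean (0.033). It was also lost under quantile normalization (-0.068) and normexp background correction (0.33). Scaled to the 75th percentile of all miRNAs of the array, the female call was kept.

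**Figure D1:**
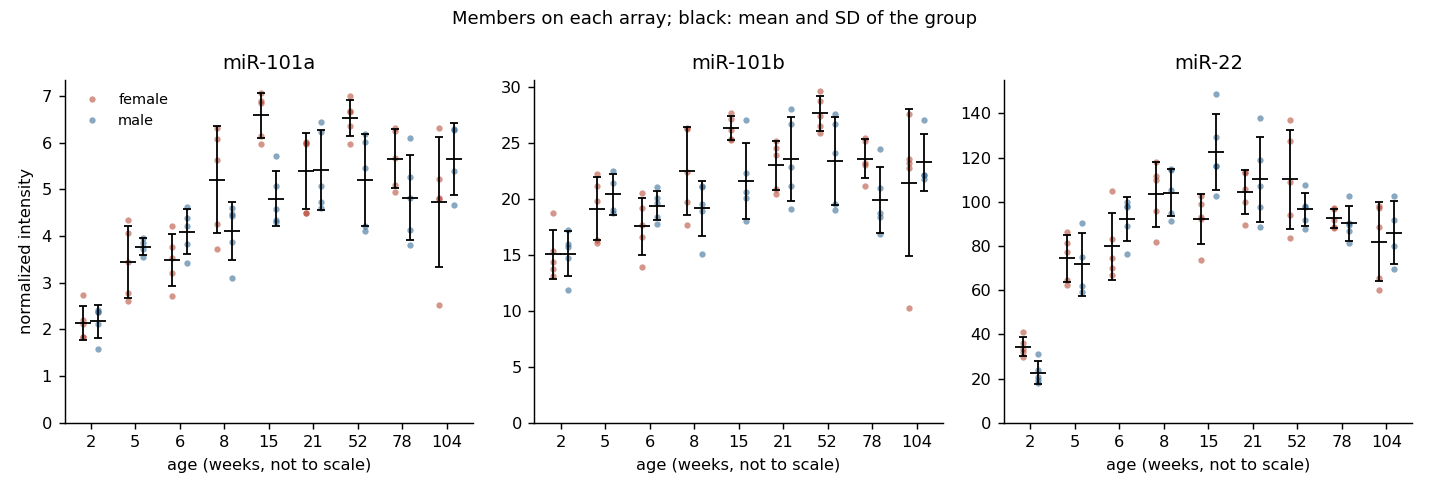
Normalized intensity (vertical axes, each from 0) of miR-101a, miR-101b and miR-22 on every array against age in weeks (horizontal axis, not to scale), with females in red and males in blue, 1 point for each animal and the mean with SD in black. The 2-week animals are lowest for miR-22 (at most 41.2 in either sex), while 1 female of 104 weeks is low for miR-101a (2.51) and for miR-101b (10.2).

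The size of these differences depended on what the arrays were scaled to. Among the 103 miRNAs detected on every array, the median difference from 2 weeks to adulthood was 0.52 in females and 0.99 in males on the log2 scale, with 47 and 71 of them called higher in adults and 3 and 1 called lower. Ranked from the largest rise among these 103, miR-22 stood 12th in females and 6th in males, and miR-101a 19th and 48th. miR-101b stood 52nd and 78th. Against the mean of these 103 miRNAs on the same array, miR-22 was still higher in adults, by 0.81 in females and 1.23 in males. On this scale its 2-week values ran from 3.67 to 4.11 in females and from 3.36 to 3.98 in males, and the adult values from 4.32 to 4.93 and from 4.2 to 5.27. The groups did not overlap. miR-101a was higher by 0.55 in females (limma adjusted p = 0.00567, under 1.5-fold), and in males the difference was 0.11 (limma adjusted p = 0.359). miR-101b differed by -0.053 in females (limma adjusted p = 0.716) and by -0.46 in males (limma adjusted p = 4.39e-06), the opposite sign to that on the main scale. Scaled to the 75th percentile of the miRNAs detected on all arrays, miR-101b was called lower in adult males, at -0.65. Scaled to the 75th percentile of all miRNAs of the array, it was called higher in adult males, at 1.65. miR-22 was higher in adults than at 2 weeks in both sexes under each scaling and background correction that was run, between 0.55 and 2.15 in females and between 0.49 and 3.35 in males. The lowest of these values, 0.55 and 0.49 under quantile normalization, were under 1.5-fold, so that miR-22 was then called in neither sex. Quantile normalization gives every array the same set of values, so a miRNA can then differ only through its rank.

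**Figure D2:**
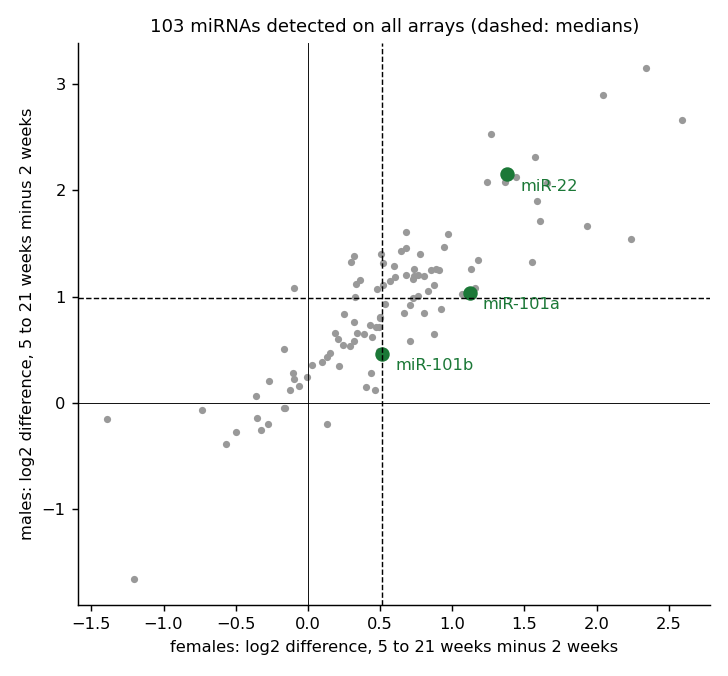
Log2 difference in normalized intensity between adults of 5 to 21 weeks and 2-week-old rats, in females (horizontal axis) and males (vertical axis), for the 103 miRNAs detected on every array (grey) with the 3 members in green; dashed lines mark the medians, 0.52 and 0.99. miR-22 lies above both medians, miR-101a above both but close to the male one, and miR-101b below the male median.

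**Figure D3:**
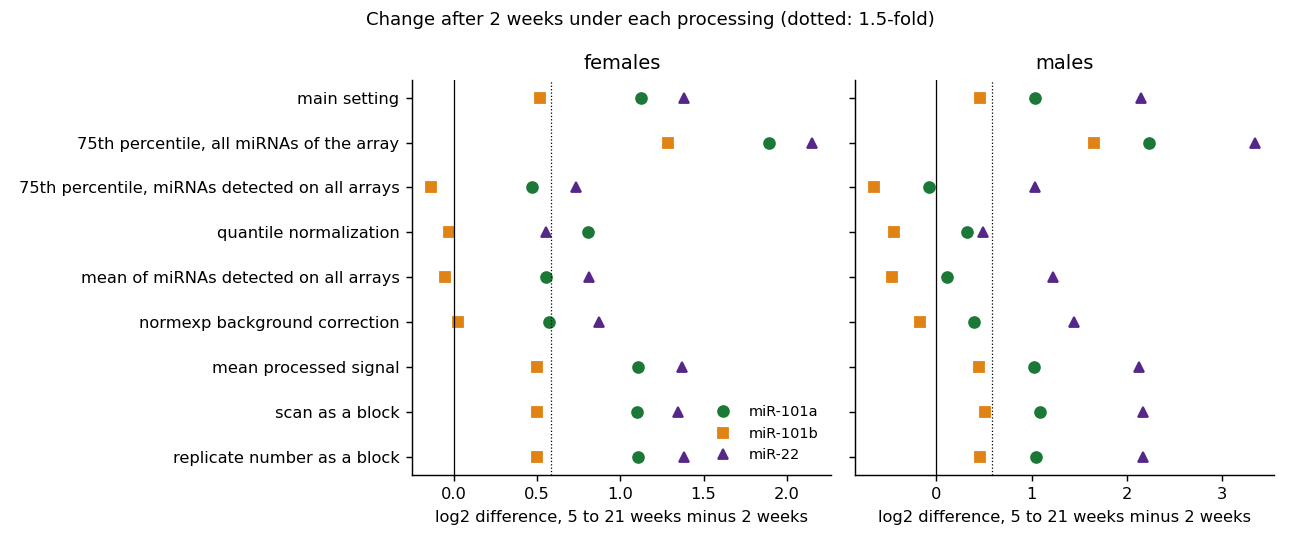
Log2 difference in adults of 5 to 21 weeks minus 2 weeks for miR-101a (green circles), miR-101b (orange squares) and miR-22 (purple triangles) under 9 processing settings, in females and in males, with a solid line at 0 and a dotted line at 1.5-fold. The miR-22 triangles stay right of 0 in every setting plotted, while the miR-101b squares fall between -0.65 and 1.65 in males.

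Differences between 2 members on the same array do not depend on the scale of the array, so they show directly whether the members changed by unequal amounts. The difference in log2 value between miR-101a and miR-101b was lowest at 2 weeks and moved up over the following weeks. In females it averaged -2.82 ± 0.05 (SD, n = 5) at 2 weeks, -2.49 ± 0.13 at 5 weeks, -2.34 ± 0.03 at 6 weeks and -2.13 ± 0.10 at 8 weeks. In males the corresponding means were -2.81 ± 0.08, -2.44 ± 0.11, -2.25 ± 0.13 and -2.23 ± 0.06 (SD, n = 5, and n = 4 at 5 weeks). From 15 to 104 weeks all group means lay between -2.18 and -2.0 in both sexes. Over all later ages miR-101a gained 0.65 on miR-101b in females and 0.62 in males, or 1.56-fold and 1.54-fold. No 2-week array reached any later array of its sex, 40 in females and 38 in males. The two-sided exact permutation test gave p = 8.18e-07 in females and p = 1.04e-06 in males, the smallest values possible with these numbers of animals, and adjusted p = 2.08e-06 for both over the 6 tests of this kind. The 2 miRNAs with a shared seed and a single base of difference therefore changed by unequal amounts.

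miR-22 gained on both miR-101 members in males. Against miR-101b, the within-array difference rose after 2 weeks by 0.83 in females (exact permutation test, adjusted p = 9.82e-06) and by 1.61 in males (exact permutation test, adjusted p = 2.08e-06). In males the 2-week arrays, between 0.31 and 0.85, lay below all 38 later arrays, which began at 1.53. In females 36 of the 40 later arrays lay above the highest 2-week array. Against miR-101a, the male difference rose by 0.99 (exact permutation test, adjusted p = 4.67e-06), with 37 of 38 later arrays above the highest 2-week array. In females it was 0.19 (exact permutation test, adjusted p = 0.321), which did not exceed the spread between animals, and with another background correction (normexp) it was 0.28 (exact permutation test, adjusted p = 0.0177).

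**Figure D4:**
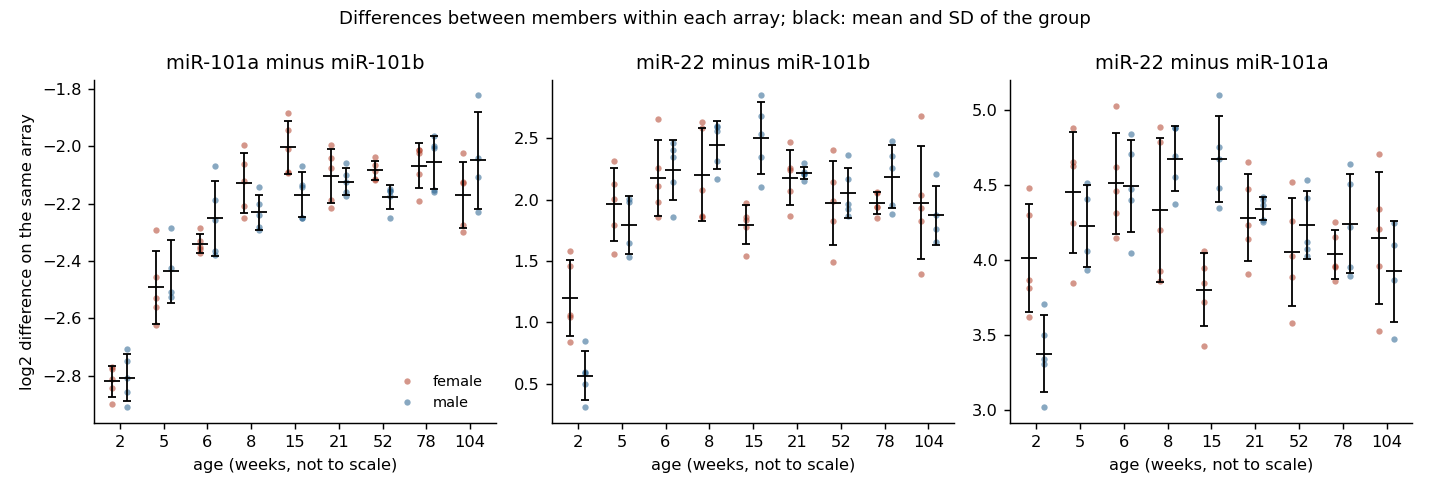
Difference in log2 value between 2 members on the same array (vertical axes) against age in weeks (horizontal axis, not to scale), 1 point for each animal, females in red and males in blue, with group mean and SD in black. For miR-101a minus miR-101b the 2-week animals lie at or below -2.71 and all later animals at or above -2.62, with the means moving up from 5 to 8 weeks.

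The files give the scan and the slide of each array, while the processing batches named in the study's methods are not assigned to samples in the labels. With the slide as a random block no call of a member between age classes or between sexes changed. With the scan as a block the only such change was for miR-101b in males between 2 weeks and 52 to 104 weeks. That difference was then called, at 0.59 (limma adjusted p = 1.14e-05). The 2-week arrays fell in scans 2, 4 and 5 for females and 3, 4 and 5 for males. Within each of these scans miR-22 was higher in adults than at 2 weeks, by 1.21 to 1.53 in females and by 2.07 to 2.35 in males. The differences for miR-101a were 0.57 to 1.31 in females and 0.86 to 1.48 in males, and for miR-101b 0.14 to 0.61 and 0.37 to 0.88. The gain of miR-101a on miR-101b was 0.45 to 0.73 in females and 0.50 to 0.69 in males within a scan, with no overlap between 2-week and later arrays in any of them. The gain of miR-22 on miR-101b was 0.62 to 1.03 in females and 1.37 to 1.98 in males within a scan. On miR-101a it was 0.68 to 1.48 in males and between -0.11 and 0.58 in females. Each scan held between 1 and 3 of the 2-week arrays of a sex. Both probes of each member showed the same direction: over all later ages the 2 probes of miR-22 gave 1.54 and 1.36 in females and 2.12 and 2.17 in males. Those of miR-101a gave 1.25 and 1.20 in females and 1.19 and 1.14 in males. Those of miR-101b gave 0.58 and 0.58 in females and 0.53 and 0.55 in males.

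After 2 weeks, the ages differed less. limma's F test over the 9 ages called each member in each sex, beside 57.3% of all expressed miRNAs in females and 54.1% in males. Of the 36 pairs of ages, 17 were called for miR-101a in females and 8 in males, 6 and 3 for miR-101b, and 8 and 10 for miR-22. Without 2-week male animal 2, 0 pairs were called for miR-101b in males. These counts depended on the scaling: under the other scalings run, 4 to 10 pairs were called for miR-101a in females and 0 to 8 in males, 0 to 7 and 1 to 8 for miR-101b, and 4 to 8 and 0 to 9 for miR-22. The pairs named next are those of the main scale. For miR-101a and miR-22, all 8 pairs with 2 weeks were called in both sexes. In females miR-101a went on rising within adulthood, from 3.44 ± 0.763 (SD, n = 5) at 5 weeks and 3.48 ± 0.566 at 6 weeks to 6.58 ± 0.491 at 15 weeks. The pairs of 5 weeks with 8, 15, 21, 52 and 78 weeks and of 6 weeks with 15, 21, 52 and 78 weeks were called for female miR-101a, and no such pair was called in males. Male miR-101a differed from 5 weeks by 0.51 at 21 weeks and 0.57 at 104 weeks on the log2 scale. These differences had limma adjusted p = 0.0156 and 0.0114 and were just under 1.5-fold. Whether the sexes differed in these pairs was not tested. In males the means ran from 3.77 ± 0.178 (SD, n = 4) at 5 weeks to 5.65 ± 0.778 (SD, n = 4) at 104 weeks. miR-101b followed in females, with 15 and 52 weeks called against 6 weeks, from 17.6 ± 2.55 (SD, n = 5) to 26.4 ± 1.07 and 27.7 ± 1.58. In males miR-22 went on from 71.6 ± 14.3 (SD, n = 4) at 5 weeks to 123 ± 17.4 (SD, n = 5) at 15 weeks and 110 ± 19.3 at 21 weeks, and both pairs were called. In females miR-22 ran from 74.4 ± 10.5 at 5 weeks to 110 ± 22.4 at 52 weeks (SD, n = 5), with no pair of later ages called. The log2 difference between these 2 ages was 0.55 (limma adjusted p = 0.00261), just under 1.5-fold.

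In the order of the group means, 2 weeks came first in each sex for each member. The step from 2 weeks to the next age in the order was called for miR-101a (limma adjusted p = 0.00167 in females) and for miR-22 in both sexes. For miR-101b it was not called, with a limma adjusted p of 0.284 in females, where 6 weeks came next, and of 0.0181 and under 1.5-fold in males, where 8 weeks came next. Neighbours among the later ages had limma adjusted p-values of at least 0.157 in each of these orders. An order by mean puts the closest ages side by side, so this does not show that the later ages were alike. The older rats of 52 to 104 weeks were not called against adults for any member. The log2 differences were 0.25 and 0.22 for miR-101a in females and males (limma adjusted p = 0.264 and 0.105), 0.15 and 0.08 for miR-101b (limma adjusted p = 0.409 and 0.649), and 0.06 and -0.13 for miR-22 (limma adjusted p = 0.850 and 0.536). This comparison called 4.46% of all expressed miRNAs in females and 5.10% in males.

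The sexes differed in miR-22 at 2 weeks. The female mean was 34.5 ± 4.42 (SD, n = 5) and the male mean 22.7 ± 5.23 (SD, n = 5), with the highest male just above the lowest female. The male value was lower by 1.54-fold (log2 difference -0.62, SE 0.14, limma adjusted p = 0.000183), and 18.8% of all expressed miRNAs were called at this age. The median difference of the 103 miRNAs detected on every array was -0.36 at 2 weeks, and on the scale of their mean miR-22 differed by -0.26 (limma adjusted p = 0.0733). Without female animal 4, male animal 2 or male animal 5 the difference was -0.55, -0.54 or -0.57, under 1.5-fold. Within scans 4 and 5, which held both sexes at 2 weeks, it was -0.98 and -0.81, each from 2 females and 1 male. These males, animals 5 and 2, had the lowest values of the 5 males. The other 3 males were in scan 3, which held no 2-week female. The change from 2 weeks to adulthood was larger in males than in females by 0.77 (SE 0.19, limma interaction test, adjusted p = 0.00118, background 21.3%). Against the mean of the 103 miRNAs, this interaction was 0.41 (limma adjusted p = 0.0252, under 1.5-fold). Under quantile normalization, where only the rank within an array counts, it was -0.064 (limma adjusted p = 0.889). The miR-101 members showed no such difference that passed the test, at -0.09 ± 0.24 (SE) for miR-101a and -0.05 ± 0.18 (SE) for miR-101b.

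At the 8 later ages no member was called between the sexes on the main scale, whereas scaled to the 75th percentile of all miRNAs of the array all 3 were called at 8 weeks, beside 32.5% of all expressed miRNAs under that scaling. On the main scale, 0% of all expressed miRNAs were called at 5 weeks, 0.637% at 6, 5.10% at 8, 9.24% at 15, 6.05% at 21, 6.69% at 52, 3.82% at 78 and 4.46% at 104 weeks. At 15 weeks miR-101a was 6.58 ± 0.491 in females and 4.80 ± 0.591 in males (SD, n = 5), with every male below every female, and the log2 difference was -0.46 (limma adjusted p = 0.0393), under 1.5-fold. It was 0.28, of the opposite sign, when scaled to the 75th percentile of all miRNAs of the array. It was called at -0.65 when scaled to the 75th percentile of the miRNAs detected on all arrays, beside 12.1% of all expressed miRNAs, and at -0.73 under normexp, beside 1.27%. miR-22 lay the other way, at 92.1 ± 11.2 in females and 123 ± 17.4 in males (SD, n = 5), a log2 difference of 0.41 (limma adjusted p = 0.0371), also under 1.5-fold and of the opposite sign under normexp background correction, at -0.20. Within scans 3, 4 and 5 at this age miR-101a differed by -0.50, -0.66 and -0.063, and miR-22 by 0.32, 0.80 and 0.34. The changes from adults to old rats did not differ between the sexes by this test for any member, with limma adjusted p-values between 0.992 and 1 beside 1.27% of all expressed miRNAs called.

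The other strand of a miRNA hairpin is usually degraded, and it was read by probes of its own. rno-miR-22*, the 5p strand of the Mir22 hairpin, was detected on 87 of 88 arrays, the exception being a 2-week-old male. In 2-week-old females its normalized intensity was 0.280, 0.346, 0.415, 0.428 and 0.491, and in 2-week-old males it was 0.248, 0.263, 0.306 and 0.341 with the fifth not detected. In adults it ran from 0.729 to 1.47 in females and from 0.759 to 1.64 in males, above all 2-week animals of the same sex. In females rno-miR-22* rose by 1.42 on the log2 scale (SE 0.19, limma adjusted p = 1.95e-08). In males the fitted difference, 2.93 (SE 0.35), took in the value set for the undetected animal. miR-101a* and miR-101b* were detected on 0 of 88 arrays.

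By the rule of the 5 most similar miRNAs, the pattern of miR-101a over the 18 groups of age and sex was nearest to miR-101b (Pearson r of group means 0.96), miR-365 (0.96), miR-29c (0.94), miR-7a (0.94) and miR-29a (0.94). That of miR-101b was nearest to miR-101a, miR-365 (0.92), miR-30e (0.89), miR-7a (0.89) and miR-26b (0.89). Without the 2-week groups, the correlation of miR-101a with miR-101b over 16 groups was 0.94. Those of miR-101a with miR-365, miR-29c, miR-7a and miR-29a were then 0.90, 0.87, 0.83 and 0.85. Those of miR-101b with miR-365, miR-30e, miR-7a and miR-26b were 0.84, 0.90, 0.77 and 0.80. miR-22 was nearest to miR-378 (0.97), miR-193 (0.97), miR-23a (0.96), miR-30a (0.96) and miR-122* (0.96). Without the 2-week groups these were 0.82, 0.88, 0.71, 0.86 and 0.77. The correlation of miR-22 with miR-101a was 0.86 over 18 groups and 0.56 over the 16 later ones, and with miR-101b 0.77 and 0.46. These points share the arrays and their scale, and are given as a description.

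Other miRNAs linked to hepatocyte growth gave the surroundings of these values. Of 28 listed growth-restraining miRNAs, 27 were on the array under these names and expressed, and from 2 weeks to adulthood 12 rose, 1 fell and 14 were not called in females, against 18, 1 and 8 in males. Over all expressed miRNAs 22.9% were called higher and 16.9% lower in females and 29.9% and 19.7% in males, and of the 103 detected on every array 47 and 71 were called higher, so nothing particular to the list is read from its counts. The median of the list was 0.51 in females and 0.84 in males, beside 0.13 and 0.13 over all expressed miRNAs and 0.52 and 0.99 over the 103 detected on every array. The largest differences in females were 2.59 for miR-29b, 2.34 for miR-29a, 2.05 for miR-29c and 1.58 for miR-34a, the first 3 being repressors of collagen mRNAs and the last a target of p53. In males they were 3.15 for miR-29a, 2.90 for miR-29c, 2.67 for miR-29b and 2.32 for miR-195, which shares its seed with miR-15 and acts on cell-cycle mRNAs. These 5 passed the test where named. Of 18 miRNAs linked to proliferation, 16 were expressed, and 3 rose and 1 fell in females against 4 and 0 in males, with medians of 0.05 and 0.41, beside the same 22.9% higher and 16.9% lower of all expressed miRNAs in females and 29.9% and 19.7% in males. miR-21 rose by 1.27 in females and 2.53 in males. In females miR-17-5p differed by -0.32, miR-19a by 0.29 and miR-92a by -0.27, none of them called. In males miR-25 rose by 0.66, while miR-19a differed by 0.53 and miR-106b by 0.43 without being called.

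Markers of liver cell types moved over the same interval, and their part in the values of the 3 members was not tested. Their counts stand beside 39.8% of all expressed miRNAs called in females and 49.7% in males, and beside 47 and 71 of the 103 miRNAs detected on every array called higher. All 3 hepatocyte miRNAs measured rose in both sexes, and their summed normalized intensity ran from 560 to 674 in 2-week females and from 399 to 429 in 2-week males, against 653 to 1289 and 634 to 1272 in adults. The 2 erythroid miRNAs, miR-451 and miR-144, rose in both sexes, with sums of 3.29 to 5.64 in females and 3.18 to 6.26 in males at 2 weeks and of 4.17 to 19.1 and 7.14 to 21.1 in adults. Of 5 leukocyte miRNAs, 4 rose in females and 5 in males, with sums of 6.45 to 8.26 and 5.00 to 8.16 at 2 weeks and of 9.25 to 19.8 and 11.6 to 18.6 in adults. Of 5 miRNAs of biliary epithelium, 2 fell in females and 0 changed in males. Of 5 stellate cell and smooth muscle miRNAs, 0 were called in females and 1 rose in males, and of 2 endothelial miRNAs 0 and 1 rose. Of 5 skeletal muscle miRNAs, 1 rose in females and 0 in males, and sums of 0 occurred in both sexes and in every age class. Of 3 pancreatic miRNAs, 1 fell in each sex.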

How the data were processed

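Liver miRNA of 88 rats was hybridized to Agilent miRNA arrays in 1 colour. The authors deposited, for each array, the Feature Extraction output (version 10.7 in the methods), in which spot and total gene signals are background-subtracted linear intensity values and 0.1 marks a miRNA not detected. The authors also deposited a table of ratio values, the total gene signal divided by the 75th percentile of the expressed miRNAs.

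Here the total gene signals were divided on each array by the value of rank 236 among the 314 expressed miRNAs, undetected signals counting as 1.84 for the percentile and as 0.0120 afterwards, and were log2-transformed. Of 15763 detected values, 1 differed from the deposited table by more than 0.01 percent. Scans were parted by more than 8 hours. The numbers in the labels matched males and females of the same age in 33 pairs, of which 17 had deviations correlated above 0.1, and they were not taken to pair animals.

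Age classes, ages and sexes were compared with limma 3.58.1 in R 4.3.3 (lmFit, eBayes). Differences between members on an array were compared by exact permutation over all regroupings, in place of the 100000 random ones planned. The fit was tested on simulated data: with 314 miRNAs, between 2 weeks and 5 to 21 weeks, 11 of 20 changed by 1 on the log2 scale were called for females and 12 for males, 18 and 15 of 20 changed by 1.5, and 19 and 20 of 20 changed by 2. Of 254 left unchanged, 1 and 2 were called. The simulated noise was added to values already normalized, so the choice of scaling was not part of this test. Python 3.11.15, numpy 2.4.6, pandas 2.3.3 and matplotlib 3.10.9 served for the rest.

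The 3 members, the lists of growth-restraining, proliferation-linked and marker miRNAs and the alternatives were chosen with earlier results of these data known. Named were the members with their passenger strands, for each member the 5 miRNAs detected on every array with the highest Pearson r of group means, and from each list the 4 miRNAs detected on every array with the largest difference between 2 weeks and 5 to 21 weeks. Mature sequences were matched by name to the RefSeq table of build GRCr8, in which all 3 members were found.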

Additional observations from a re-analysis of the deposited data

Results flagged for a closer look

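The change of miR-22 from 2 weeks to 5 to 21 weeks was larger in males than in females by 0.77 on the log2 scale, by the interaction test. This call was lost under each other scaling and under normexp, where the value ran from -0.064 to 1.19. Among the values of 3 miRNAs in 18 groups, 2 arrays stood far from the others of their group: a female of 104 weeks with a normalized intensity of 10.2 for miR-101b, where the other 4 lay between 22.8 and 27.6, and a male of 104 weeks with 27.1, where the other 3 lay between 21.8 and 22.2. Chance marks about 1 in 20 such groups, and 54 were examined. The female array was also the lowest of its group for miR-101a, at 2.51.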

How the results depend on the processing

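The direction for miR-22 between 2 weeks and later ages held in both sexes under each alternative, and so did the direction of the differences in change between miR-101a and miR-101b and between miR-22 and miR-101b without each array in turn. With the mean processed signal and with normexp, the 2 settings in which these differences were tested again, they also stayed under an adjusted p of 0.05, miR-101a gaining 0.55 in females and 0.57 in males on miR-101b with normexp. The values given next changed their sign or their call with the scaling, the background correction or, in 1 case, the scan as a block, and the cause was not tested. Log2 differences follow, 2 weeks against 5 to 21 weeks unless stated. Scaled to the 75th percentile of the miRNAs detected on all arrays, miR-101a gave 0.47 in females and -0.080 in males, and miR-101b gave -0.14 and -0.65. Of these, the male miR-101b value was called, lower in adults (limma adjusted p = 2.08e-07). Against 52 to 104 weeks miR-101a gave 0.55 and 0.15, and miR-101b gave -0.17 and -0.56, none of them called. For miR-22 the sexes at 2 weeks then differed by -0.23 and the interaction was 0.31. Under quantile normalization miR-101a gave 0.32 in males (0.43 against 52 to 104 weeks), miR-101b gave -0.031 and -0.45 (-0.068 and -0.57), and miR-22 gave 0.55 and 0.49 (0.51 in males). For miR-22 the sexes then differed by 0.00 at 2 weeks and by -0.0042 at 15 weeks, with an interaction of -0.064. Only ranks count under quantile normalization, so its differences move by steps of rank. Scaled to the mean of the miRNAs detected on all arrays, an alternative chosen after seeing the data, miR-101a gave 0.55 and 0.11 (0.27 in males against 52 to 104 weeks), miR-101b gave -0.053 and -0.46 (0.033 and -0.44), and miR-22 gave -0.26 between the sexes at 2 weeks and 0.41 for the interaction. With normexp background correction, on the median signal and background as the files hold no mean signal, miR-101a gave 0.57 and 0.40, and miR-101b gave -0.17 in males and 0.33 in females against 52 to 104 weeks. miR-22 then gave -0.68 between the sexes at 2 weeks (limma adjusted p = 0.0796), -0.20 at 15 weeks and 0.58 for the interaction (limma adjusted p = 0.538), none of them called, and its gain on miR-101a in females was 0.28. Scaled to the 75th percentile of all miRNAs of the array, many of them undetected, miR-101b gave 1.29 and 1.65 (1.69 in males against 52 to 104 weeks), all called, and miR-22 gave -0.59 between the sexes at 2 weeks (limma adjusted p = 0.699) and 1.19 for the interaction (limma adjusted p = 0.0941), neither of them called. The sexes then differed at 8 weeks by 1.07 for miR-101a and 1.17 for miR-101b, and at 15 weeks by 0.28 for miR-101a. At 8 weeks miR-22 then differed by 1.41, and all 3 members were called at that age, beside 32.5% of all expressed miRNAs under this scaling. At 15 weeks miR-101a was called between the sexes when scaled to the 75th percentile of the miRNAs detected on all arrays, at -0.65, and with normexp, at -0.73. With the scan as a block, miR-101b in males gave 0.59 against 52 to 104 weeks.

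Leaving out 1 array at a time gave 0.47 to 0.60 for miR-101b in females, 0.46 to 0.59 for miR-101b in males against 52 to 104 weeks, and -0.74 to -0.54 for miR-22 between the sexes at 2 weeks. The replicate block changed no call of a member: miR-22 gave 1.38 in females and 2.17 in males, and -0.65 between the sexes at 2 weeks. Of the 36 pairs of ages, the number called over the alternatives ran from 4 to 17 in females (up to 19 without 1 array) and from 0 to 9 in males for miR-101a, from 0 to 7 and from 0 to 8 for miR-101b, and from 4 to 14 and from 0 to 11 for miR-22. The number of miRNAs called between 2 weeks and 5 to 21 weeks, 125 in females and 156 in males, ran from 37 to 202 and from 57 to 237 over the alternatives. Against 52 to 104 weeks, 144 and 153 ran from 50 to 218 and from 64 to 227, and between 5 to 21 and 52 to 104 weeks 14 and 16 ran from 4 to 18 and from 6 to 19. The 59 between the sexes at 2 weeks ran from 6 to 64, the 67 of the interaction from 3 to 71, and the 180 and 170 of the age test from 79 to 236 and from 85 to 253. Every spot of the 3 members was well above background on all 88 arrays, and the 4 or 5 animals of a group limit the precision.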
